A study of Mus musculus with 4 samples.

Results

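The BCL2 family genes that decide between survival and death at the mitochondrion were examined in leukaemia stem cells, the cells that propagate a leukaemia, by ribosome footprinting. The set was taken by gene name and held 10 of the 16442 genes of the table: the survival genes Bcl2, Bcl2l1, Bcl2l2 and Mcl1, the effectors Bax and Bak1, and the BH3-only genes Bid, Bad, Bcl2l11 and Bbc3. There were 4 libraries, 2 labelled Rreb1 knockout (KO) and 2 labelled WT, all from bone marrow of leukaemic C57BL/6 mice. For KO replicate 2 the genotype entry names Rreb2 rather than Rreb1, and its title placed that library with KO. The Rreb1 allele, the driver of the leukaemia, the age of the mice and the sort of the cells are not given in the sources used here. Nor is it given which animals the replicates came from, so the errors below reflect the spread between libraries, which may be technical. Each SE is the moderated one of a fit across genes (limma), which draws a gene's own spread toward that of the other genes. It can therefore be smaller than the spread of that gene's own libraries, as it is for the footprints of Bcl2l1 and Bak1. The genes were chosen by name, but with earlier results of these libraries in view, namely the footprint, RNA and translational efficiency values of KO against WT. Those differences are therefore given as a description without p-values, and which of them passed the threshold of the fit over all genes is stated only beside the share of all genes that did.

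BCL2 family proteins share short homology regions and act at the outer mitochondrial membrane. The survival proteins hold the effectors BAX and BAK in check. When BH3-only proteins occupy the survival proteins or activate the effectors, BAX and BAK open the membrane, cytochrome c escapes and caspases are activated. MCL1, BCL-XL (the product of Bcl2l1) and BCL2 are the survival proteins on which blood cells and leukaemias most often depend, and BCL2 is the target of the drug venetoclax.

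Each lysate was digested with micrococcal nuclease, and the fragments that ribosomes protected were sequenced, while an undigested portion served as input RNA. Footprint levels are in RPKM, that is, reads divided by coding length and by the library's assigned reads. RNA levels are in RPKM of the input, and the translational efficiency (TE) is the deposited ratio of the footprint value plus 1 to the RNA value plus 1. Footprint depth was 364087 and 274183 assigned reads in KO replicates 1 and 2, against 878068 and 656249 in WT replicates 1 and 2, and input depth lay between 17037493 and 19121998 reads. Across the 6389 genes with at least 20 CPM (assigned reads scaled to a common total) in at least 2 libraries, replicates correlated in footprints with r = 0.782 between the KO libraries and r = 0.94 between the WT libraries, and in RNA with r = 0.996 and r = 0.997. Rreb1 itself, a zinc finger transcription factor, had 6.1 and 6.93 RPKM of RNA in the KO libraries, against 3.33 and 3.25 RPKM in the WT libraries, and 12.9 and 8.19 RPKM of footprints against 14.1 and 12.8 RPKM. As its RNA went against the label, the libraries are called KO-labelled, and every direction rests on the labels. The pan-leukocyte and myeloid genes Ptprc, Spi1 and Laptm5 were present in all 4 libraries, and the RNA of all 3 was lower in both KO-labelled libraries, with sums of 495 to 513 RPKM there and 619 to 631 RPKM in WT. Of the 7 stem and progenitor markers, 5 were higher in RNA in both KO-labelled libraries, Meis1 was lower (11.9 and 11.5 RPKM, against 12.5 and 12.1 RPKM in WT), and Hoxa9 overlapped. Kit and Cd34 had 7.15 to 7.36 and 49.8 to 50.5 RPKM of RNA in the KO-labelled libraries, against 1.97 to 2.32 and 4.41 to 4.71 RPKM in WT.

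All 10 genes matched a RefSeq entry of GRCm38.p6. The sequences of 3 promoters are shown, those of Bcl2 and Bcl2l11, whose RNA differed in opposite directions, and that of Bak1, whose RNA and footprints did. Each is the 250 bases before a transcription start, 5′ to 3′. Capitals mark the GC box (GGGCGG), the CCAAT box (CCAAT), the TATA box (TATAAA) and the 2 parts of the Ras-responsive element for which RREB1 is named (CCCCAAAC and CCACCCC, motifs chosen after the data were seen), each searched on both strands, with overlaps allowed.
Bcl2 (chr1:106714291-106714540, minus strand): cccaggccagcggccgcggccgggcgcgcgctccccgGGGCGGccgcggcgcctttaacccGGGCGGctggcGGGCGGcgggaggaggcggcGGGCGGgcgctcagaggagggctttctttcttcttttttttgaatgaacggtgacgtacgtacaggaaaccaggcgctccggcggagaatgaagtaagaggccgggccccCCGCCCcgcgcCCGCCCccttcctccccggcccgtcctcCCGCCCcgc
Bak1 (chr17:27028628-27028877, minus strand): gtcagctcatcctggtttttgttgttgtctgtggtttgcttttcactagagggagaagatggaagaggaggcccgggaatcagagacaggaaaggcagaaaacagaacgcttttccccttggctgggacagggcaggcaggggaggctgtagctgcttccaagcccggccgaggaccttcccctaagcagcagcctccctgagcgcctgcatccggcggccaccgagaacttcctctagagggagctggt
Bcl2l11 (chr2:128125788-128126037, plus strand): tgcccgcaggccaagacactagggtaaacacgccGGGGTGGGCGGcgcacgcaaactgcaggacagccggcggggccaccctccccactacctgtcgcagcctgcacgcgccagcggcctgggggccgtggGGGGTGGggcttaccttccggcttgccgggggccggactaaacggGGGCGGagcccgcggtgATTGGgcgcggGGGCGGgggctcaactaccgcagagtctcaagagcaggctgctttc
The Bcl2 window was 74.8% G and C and held 7 GC boxes. The Bak1 window held no match, and the first of 2 Bcl2l11 windows, the one shown, held 3 GC boxes, 1 CCAAT box and 2 copies of CCACCCC, of which 1 overlaps a GC box. The second Bcl2l11 window (chr2:128127325-128127574) held 2 GC boxes, 2 CCAAT boxes and 0 copies of CCACCCC. Among 32851 promoter windows of the same length, 32.7% held a GC box, 33.8% a CCAAT box, 12.4% a TATA box, 1.58% CCCCAAAC and 13.5% CCACCCC. For Bcl2l1 all 3 windows lie inside the gene's interval (chr2:152758732-152833803), and they are not shown. The Bcl2l11 window at chr2:128127325-128127574, also not shown, lies inside its gene too. So do the Mcl1 window, the Bad window that held CCACCCC and every Bbc3 window. The windows of Bid, Bcl2l2 and Bax overlap their genes in part. The Bcl2l1 window at chr2:152830718-152830967 held 1 copy of CCACCCC, and the other Bcl2l1 windows held no match. Bad held 1 copy of CCCCAAAC in 1 window and 2 copies of CCACCCC in another. Bbc3 held 2 copies of CCACCCC in each of 2 overlapping windows. No window of Bcl2, Bcl2l2, Mcl1, Bax, Bak1 or Bid held either part of the Ras-responsive element. A match describes these letters and is no evidence of binding.

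Among the survival genes, Bcl2l1 stood out in footprints. Bcl2l1 had footprints of 321 and 201 RPKM in the KO-labelled libraries, against 26.9 and 16 RPKM in the WT libraries. Both KO-labelled values lay far above both WT values, and the group means differed 12.2-fold. These values rested on 89 and 42 reads in KO-labelled replicates 1 and 2, against 18 and 8 reads in WT replicates 1 and 2. The pooled reads, scaled to depth, gave a ratio of 12.1, with an exact 95% interval of 7.91 to 19.2 that covers counting error only. On the log2(RPKM + 1) scale of the fit across all genes, KO-labelled minus WT footprints came to 3.55 ± 0.42 (SE, n = 2 per group), the 51st highest of 6389. The RNA of Bcl2l1 lay the other way, at 13 and 10.7 RPKM in the KO-labelled libraries, against 21.2 and 20.4 RPKM in WT, a log2 difference of -0.77 ± 0.10 (SE, n = 2 per group). Over all genes tested, 37.8% had footprint and RNA differences of opposite sign, and 28 of 6389 (0.438%) combined a footprint difference of at least 2 with lower RNA, a threshold chosen after the values were seen.

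Mcl1, which encodes a short-lived survival protein on which many myeloid leukaemias rely, had footprints of 171 and 169 RPKM in the KO-labelled libraries, against 203 and 285 RPKM in WT. The groups did not overlap, but the log2 difference of -0.50 ± 0.30 (SE, n = 2 per group) stood beside a median of -0.134 over all genes tested. Its RNA was 18.9 and 25.3 RPKM in the KO-labelled libraries, against 29.4 and 25.7 RPKM in WT, and here KO-labelled replicate 2 came close to WT replicate 2. Bcl2 itself was read sparsely. Its footprints were 33.9 and 5 RPKM from 9 reads and 1 read in the KO-labelled libraries, against 6.25 and 14.6 RPKM from 4 and 7 reads in WT, so that the WT values lay between the KO-labelled ones. In RNA the Bcl2 groups were far apart, at 5.51 and 5.19 RPKM in the KO-labelled libraries, against 1.44 and 1.2 RPKM in WT, a ratio of means of 4.05. Bcl2l2, which encodes BCL-W, was listed at 0 footprints in all 4 libraries, and its RNA was 1.27 and 2.04 RPKM in the KO-labelled libraries, against 0.996 and 0.777 RPKM in WT. In bulk RNA, fewer cells of a type and less RNA per cell cannot be told apart.

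**Figure D1:**
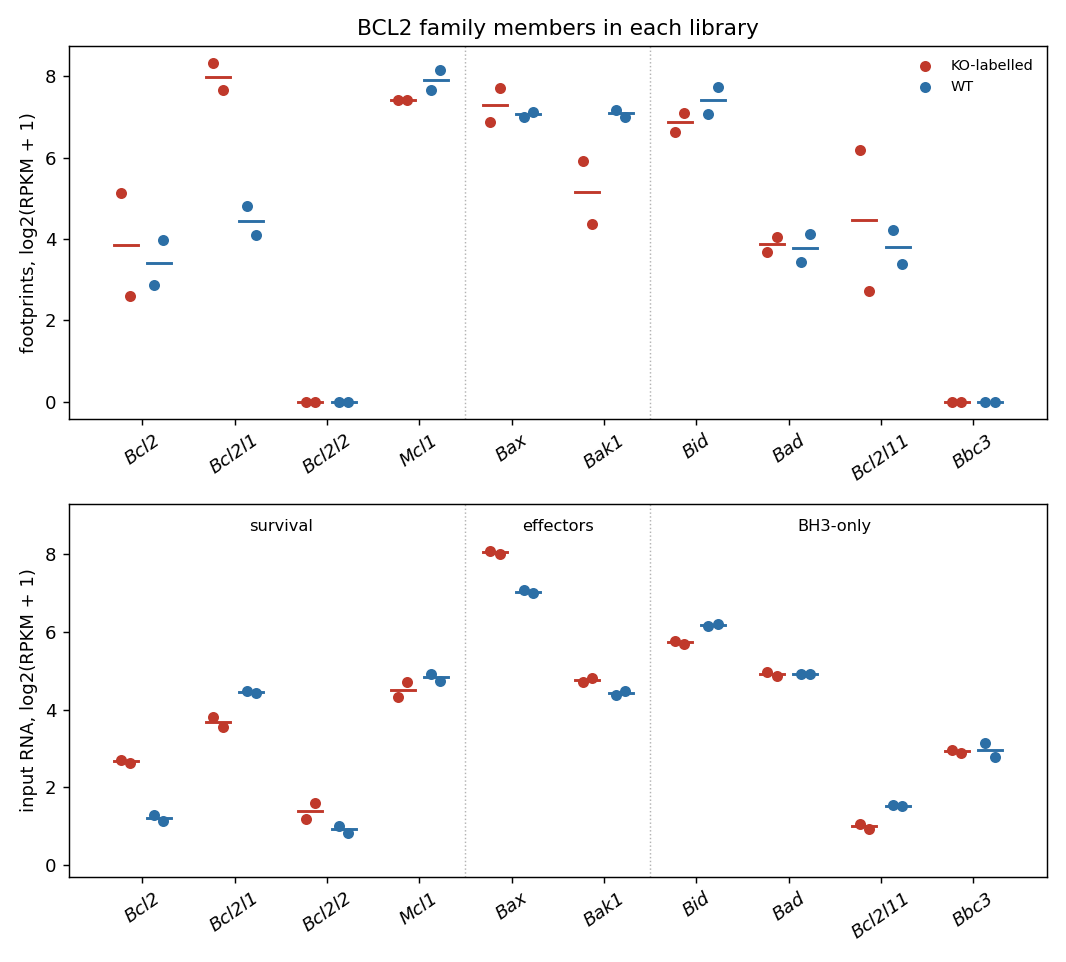
Footprints (top) and input RNA (bottom) of the 10 BCL2 family genes as log2(RPKM + 1), 1 point per library and a bar at each group's mean, with KO-labelled libraries in red on the left and WT in blue on the right of each gene. Bcl2l1 is the gene whose KO-labelled footprints (321 and 201 RPKM) lie above WT (26.9 and 16 RPKM) while its RNA lies below, and Bak1 shows the opposite arrangement.

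Markers of other cell types moved with the groups, and their part in the Bcl2l1 and Bcl2 differences was not tested. For mast cells, basophils and eosinophils, 5 of the 6 listed genes with a row were higher in RNA in both KO-labelled libraries, and the list summed to 482 to 499 RPKM there, against 32.8 to 34.5 RPKM in WT. The T and NK cell list summed to 362 to 432 RPKM, against 16.7 to 16.9 RPKM, nearly all of it Nkg7 (426 and 356 RPKM, against 15 and 14.6 RPKM), while Cd3e, Cd3d, Cd3g and Cd8a were below 1 RPKM everywhere. Megakaryocytes and platelets summed to 20.8 to 22.2 RPKM, against 1.15 to 1.64 RPKM. In the KO-labelled libraries the sum was almost entirely Itga2b (19.7 and 19.6 RPKM, against 0.153 and 0.162 RPKM in WT). Pf4 and Gp9 were at most 1.79 RPKM in any library. Erythroid genes summed to 304 to 368 RPKM, against 54.9 to 63.9 RPKM, mainly globin, while Epor and Klf1 were below 1 RPKM in all 4 libraries. Stroma and endothelium summed to 72.4 to 79.7 RPKM, against 11.7 to 12.1 RPKM, and 3 of its 4 genes with a row were higher in both KO-labelled libraries. Most of that sum was Pecam1 (48.7 and 53 RPKM, against 10.5 and 10.6 RPKM) and Pdgfrb (19 and 21 RPKM, against 0.974 and 1.1 RPKM). Sparc was at most 0.229 RPKM in any library, and Col1a2 and Cdh5 have no row. Monocyte and macrophage genes were lower for 6 of 6, at 1091 to 1209 RPKM, against 5927 to 5942 RPKM in WT, and neutrophil genes were lower for 5 of 7, at 2706 to 3297 RPKM, against 7634 to 8277 RPKM. Of the B cell list only Cd79a and Cd79b have rows, 1 higher and 1 lower, with sums of 26.4 to 28.3 RPKM against 40.5 to 43 RPKM.

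The effectors split between RNA and footprints. Bak1 had footprints of 59.3 and 19.7 RPKM in the KO-labelled libraries, from 16 and 4 reads, against 144 and 127 RPKM in WT, from 94 and 62 reads. Both KO-labelled values were below both WT values, and the WT mean was 3.44-fold the KO-labelled mean. The pooled WT over KO-labelled read ratio was 3.24 (exact 95% interval 2.03 to 5.46, counting error only), and on the log2 scale the groups differed by -1.95 ± 0.57 (SE, n = 2 per group), the 225th lowest of 6389. Bak1 RNA was slightly higher in the KO-labelled libraries, at 25.2 and 27.1 RPKM, against 19.7 and 21.3 RPKM in WT, a log2 difference of 0.33 ± 0.08 (SE, n = 2 per group). A footprint difference of -1 or below together with higher RNA was seen in 235 of 6389 genes (3.68%), again a threshold chosen after the values were seen.

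Bax, the cytosolic effector that moves to mitochondria on activation, had the most abundant RNA of the set. It was 272 and 259 RPKM in the KO-labelled libraries, against 135 and 127 RPKM in WT. These groups were well separated, with a ratio of means of 2.02 and a log2 difference of 1.01 ± 0.07 (SE, n = 2 per group). Its footprints overlapped, at 116 and 208 RPKM from 26 and 35 reads in the KO-labelled libraries, against 128 and 139 RPKM from 69 and 56 reads in WT. The footprint difference of 0.22 ± 0.37 (SE, n = 2 per group) was smaller than its error. The ratio of Bax to Bak1 in footprints was therefore 1.96 and 10.6 in the KO-labelled libraries, against 0.886 and 1.09 in WT, and in RNA 10.8 and 9.56, against 6.85 and 5.97.

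Of the BH3-only genes of the set, only Bid met the read filter. Bid, whose product is cut by caspase 8 to link death receptors to mitochondria, had footprints of 98.6 and 137 RPKM in the KO-labelled libraries, against 134 and 214 RPKM in WT, and the groups overlapped. Its RNA was 53.5 and 50.9 RPKM in the KO-labelled libraries, against 69.8 and 73.4 RPKM in WT, a log2 difference of -0.45 ± 0.07 (SE, n = 2 per group). Bad, whose protein is kept inactive by phosphorylation, overlapped between the groups in footprints and RNA. It had 11.8 and 15.6 RPKM of footprints from 4 reads each in the KO-labelled libraries, against 9.77 and 16.3 RPKM from 8 and 10 reads in WT, and its RNA lay between 28.4 and 30.5 RPKM in all 4 libraries. The pooled read ratio of Bad was 1.07, with an exact 95% interval of 0.402 to 2.58, so a difference within that range was not detectable at this depth.

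Bcl2l11, which encodes BIM, a BH3-only protein that binds all the survival proteins, turned on 1 library. Its footprints were 72.2 RPKM from 17 reads in KO-labelled replicate 1 and 5.64 RPKM from 1 read in KO-labelled replicate 2, against 17.6 and 9.42 RPKM from 10 and 4 reads in WT. The log2 difference of 0.66 became -1.07 without KO-labelled replicate 1 and 2.39 without KO-labelled replicate 2. Its RNA was low but separated, at 1.08 and 0.914 RPKM in the KO-labelled libraries, against 1.9 and 1.87 RPKM in WT. Bbc3, which encodes the p53-induced protein PUMA, was listed at 0 footprints in every library, where 3 reads would have been 8.24 and 10.9 CPM in the KO-labelled libraries and 3.42 and 4.57 CPM in WT. Its RNA was measured by 226 to 316 input reads per library, at 6.77 and 6.44 RPKM in the KO-labelled libraries, against 7.78 and 5.86 RPKM in WT. Of 7059 genes with a mean RNA of at least 5 RPKM, 445 (6.3%) were listed at 0 footprints in all 4 libraries, Cycs (cytochrome c) among them, so a listed 0 is not taken as absence of translation.

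In TE, Bcl2l1 and Bak1 were again the members with the widest gaps between the groups. Mcl1 was efficiently translated in every library, with a TE of 8.68 and 6.45 in the KO-labelled libraries, against 6.71 and 10.7 in WT, at percentiles 84.1 to 92.3 of the genes tested. Bax and Bad lay low in every library, at percentiles 4.3 to 12.6 and 1.21 to 4.98. Bcl2l1 changed place, with a TE of 23 and 17.2 in the KO-labelled libraries, against 1.26 and 0.796 in WT. That put it at percentiles 97 and 96.9 in the KO-labelled libraries, against 17.2 and 6.51 in WT, and its log2 difference of 4.31 ± 0.39 (SE, n = 2 per group) was the 8th highest of 6389. Bak1 had a TE of 2.3 and 0.736 in the KO-labelled libraries, against 7.01 and 5.76 in WT, a log2 difference of -2.29 ± 0.61 (SE, n = 2 per group) and the 74th lowest. Bax had a TE of 0.43 and 0.804 in the KO-labelled libraries, against 0.946 and 1.09 in WT, which did not overlap either. As footprints are read over coding sequence and RNA over whole exons, a TE compares the same gene between libraries better than different genes.

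**Figure D2:**
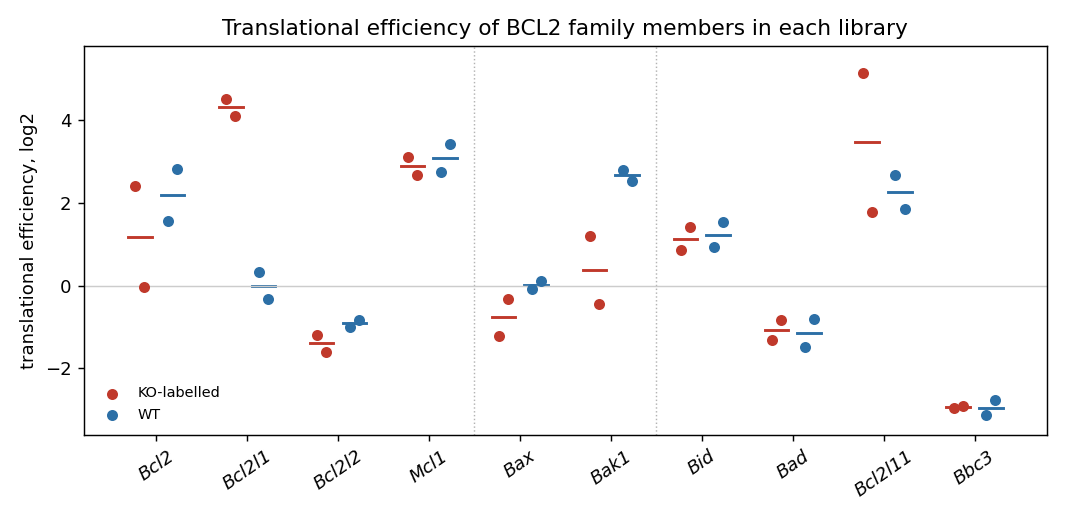
Translational efficiency (footprint value plus 1 over RNA value plus 1, as deposited) of the 10 genes on a log2 axis, 1 point per library and a bar at each group's mean, KO-labelled in red and WT in blue. Bcl2l1 (23 and 17.2, against 1.26 and 0.796) and Bak1 (2.3 and 0.736, against 7.01 and 5.76) have KO-labelled libraries on opposite sides of WT. Values of Bcl2l2 and Bbc3, listed at 0 footprints, follow their RNA alone.

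Of the 10 genes, 5 met the filter on footprint reads, namely Bcl2l1, Mcl1, Bax, Bak1 and Bid, and the other 5 were not tested. In footprints 1 of these 5, Bcl2l1, passed limma's adjusted threshold of 0.05, where 1.06% of all 6389 genes passed, 0.595% higher and 0.47% lower. The groups of 3 of the 5 did not overlap, where 52.5% of all genes did not, 20.5% with KO-labelled libraries higher and 32.1% lower. In RNA 4 of the 5 passed, Bax and Bak1 higher and Bcl2l1 and Bid lower, where 60.8% of all genes passed, 33.1% higher and 27.7% lower. The groups of all 5 did not overlap, where 82% of genes did not, 44.4% with KO-labelled libraries higher and 37.6% lower. In TE 0 of the 5 passed limma, as did 0% of all genes, with 1 higher and 1 lower at an unadjusted p under 0.05 and 831 such genes in all, and the groups of 3 did not overlap, where 48% of genes did not, 15.6% with KO-labelled libraries higher and 32.3% lower. With RNA fitted over the 11753 genes with a mean of at least 1 RPKM, all 10 members entered and 6 passed, where 52.2% of genes passed, 31.3% higher and 20.8% lower. Bcl2, Bax and Bak1 were the higher ones and Bcl2l1, Bid and Bcl2l11 the lower ones. The RNA groups of 8 of the 10 did not overlap, where 79.1% of these genes did not. As the same contrast was in view when the genes were chosen, nothing is read from these counts. The Bcl2l1 footprint call depended on the settings. With all 4 libraries it was met with pseudocounts of 0.5 and 5 and with the replicate block. In these fits 66, 110 and 32 of 6389 genes passed. The call was lost with no filter (0 of 16442 genes passed), a mean of at least 20 CPM (18 of 6342), median-centred libraries (79 of 6389) and limma-voom (50 of 6389). The log2 difference of Bcl2l1 stayed between 3.19 and 3.91, also with 1 library left out. Bak1 footprints passed in no fit of all 4 libraries. Their difference was -2.72 without KO-labelled replicate 1 and -1.18 without KO-labelled replicate 2. In RNA the difference of Bak1 was 0.28 without WT replicate 1, and that of Mcl1 was -0.52 without KO-labelled replicate 2.

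**Figure D3:**
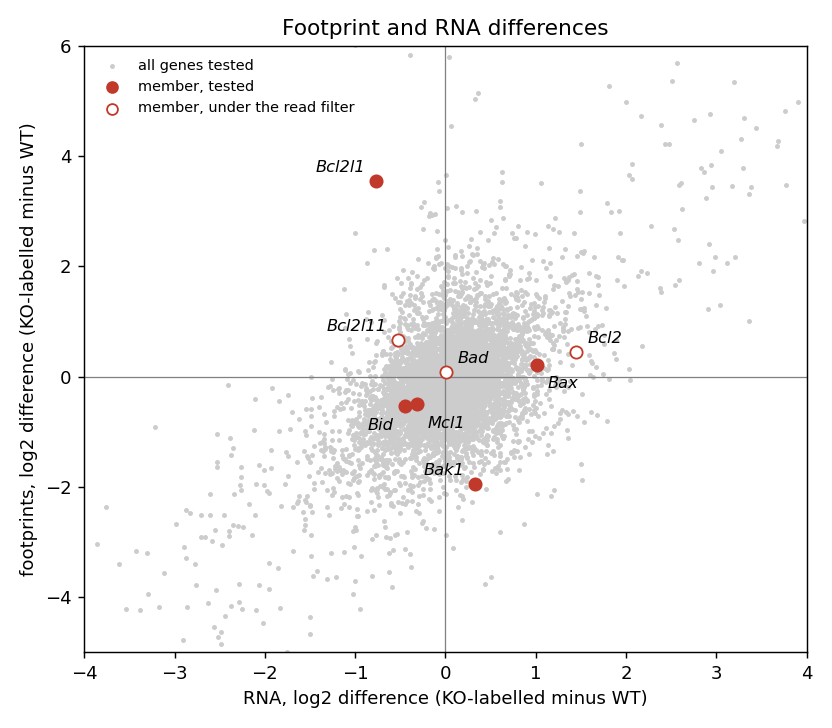
Log2 difference (KO-labelled minus WT) in footprints against that in RNA, with all genes tested in grey, tested BCL2 family genes as filled red points and those under the read filter as open points; 36 grey points lie outside the axes, and Bcl2l2 and Bbc3, listed at 0 footprints, are not drawn. Bcl2l1 lies at 3.55 in footprints and -0.77 in RNA, and Bak1 at -1.95 and 0.33.

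Summed by role, the survival genes took a larger share of footprints and a smaller share of RNA in the KO-labelled libraries. These shares followed single genes rather than whole roles. Bcl2l1 carried the footprint difference (321 and 201 RPKM, against 26.9 and 16 RPKM in WT). Bax carried most of the RNA difference (272 and 259 RPKM, against 135 and 127 RPKM in WT). The sums cover the genes of the set only. They leave out other relatives, among them the BH3-only gene Pmaip1, with footprints of 249 and 260 RPKM, against 604 and 444 RPKM in WT. The survival genes held 59.5% and 49.3% of the set's summed RPKM of footprints in the KO-labelled libraries, against 35.2% and 38.5% in WT. The effectors held 19.9% and 29.9% in the KO-labelled libraries, against 40.6% and 32.4% in WT, and the BH3-only genes 20.6% and 20.8%, against 24.1% and 29.1%. In RNA the survival share was 9.04% and 10.4% in the KO-labelled libraries, against 16.7% and 15.6% in WT, while the effector share was 69.5% and 68.8%, against 49% and 48.4%, and the BH3-only share 21.5% and 20.8%, against 34.3% and 35.9%. The ratio of survival to effector sums was accordingly 3 and 1.65 in footprints of the KO-labelled libraries, against 0.867 and 1.19 in WT, and 0.13 and 0.151 in RNA, against 0.342 and 0.323. Bcl2l1 and Mcl1 made up most of the survival sum. Bcl2l1 was 61% and 53.6% of the survival footprint sum in the KO-labelled libraries, against 11.4% and 5.06% in WT, and Mcl1 32.6% and 45.1%, against 86% and 90.3%. The members together took 0.067% and 0.0565% of assigned footprint reads in the KO-labelled libraries, against 0.0511% and 0.0632% in WT, ranges that overlap.

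**Figure D4:**
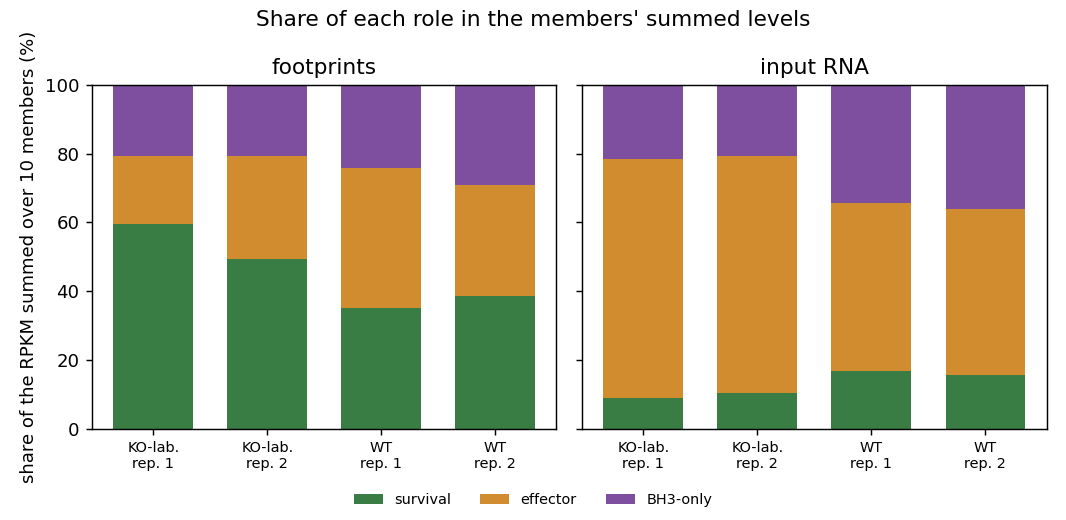
Share (%) of the RPKM summed over the 10 genes that fell to survival genes (green), effectors (orange) and BH3-only genes (purple), in footprints (left) and input RNA (right), 1 bar per library with the KO-labelled libraries first. The survival share of footprints is larger in the KO-labelled libraries (59.5% and 49.3%, against 35.2% and 38.5%), and that of RNA is smaller (9.04% and 10.4%, against 16.7% and 15.6%). Bcl2l1 carries the footprint difference, and Bax most of the RNA difference.

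The order of footprint levels within the set differed between the groups. By group mean, Bcl2l1 came first in the KO-labelled libraries with 261 RPKM and lay above Mcl1 (170 RPKM) in both. In KO-labelled replicate 2, however, Bax (208 RPKM) was above Bcl2l1 (201 RPKM). Mcl1, Bax (162 RPKM) and Bid (118 RPKM) followed, and neighbours among them overlapped, while Bid lay above Bak1 in both libraries. Bak1, Bcl2l11, Bcl2 and Bad came next, at 39.5, 38.9, 19.5 and 13.7 RPKM, again without separation between neighbours. In WT, Mcl1 led with 244 RPKM and was followed by Bid (174 RPKM), Bak1 (136 RPKM) and Bax (133 RPKM), whose neighbours overlapped. All 4 lay above Bcl2l1 (21.5 RPKM), which overlapped Bcl2l11 (13.5 RPKM), and Bad and Bcl2 were at 13 and 10.4 RPKM. The RNA order began with Bax, Bid and Bad in both groups.

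Other genes of the apoptosis pathway were counted in 7 groups, with 54 of 59 genes in the table and 39 tested. These lists were also drawn up with earlier results of these libraries known. The genes named below are those with the largest differences past the threshold. Their p-values therefore describe the fit over all genes and are no independent test. In footprints 0 of the 39 passed limma, and 0 by limma-voom on the recovered reads. At an unadjusted p under 0.05 in limma, 2 were higher and 6 lower, beside 1164 such genes among all 6389. The median was -0.19, beside -0.134 over all genes. RNA of 14 rose and of 12 fell, 13 missed the threshold, and the median was 0.0145, beside 0.0431 over all genes. These calls stand beside 60.8% of all genes passing in RNA, 33.1% higher and 27.7% lower, a share near that of the list. In TE 0 passed limma, with 2 higher and 3 lower at an unadjusted p under 0.05, beside 831 such genes among all 6389.

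Of the BCL2 relatives outside the set, 3 of 12 in the table were tested. Pmaip1, which encodes NOXA, the BH3-only partner of MCL1, fell in RNA to 82.2 and 66.5 RPKM in the KO-labelled libraries, against 143 and 153 RPKM in WT (log2 difference -0.99 ± 0.10, SE, limma adjusted p = 0.000192). Its footprints lay the same way, at 249 and 260 RPKM against 604 and 444 RPKM, and missed the threshold (limma adjusted p = 0.186). RNA of Bcl2l13 fell by 0.52 in log2 terms, with a limma adjusted p of 0.00182. Bcl2l12 RNA rose by 0.37 (limma adjusted p = 0.0166), a call lost without WT replicate 1 (0.36) and without WT replicate 2 (0.39).

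Downstream of the mitochondrion, RNA of 4 of 8 tested apoptosome and caspase genes fell and that of 2 rose, where 27.7% of all genes were lower and 33.1% higher. Casp6, an executioner caspase, had 3.84 and 3.2 RPKM in the KO-labelled libraries, against 7.36 and 8.22 RPKM in WT (limma adjusted p = 0.00022). Its footprints were 23.2 and 13.2 RPKM in the KO-labelled libraries, against 53.6 and 57.1 RPKM in WT (limma adjusted p = 0.16). RNA of Casp9, the initiator caspase of the apoptosome, fell by 0.59, and that of Aifm1, a mitochondrial flavoprotein, by 0.32, both in log2 units with limma adjusted p of 0.000655 and 0.00608. The Aifm1 call was lost without WT replicate 2 (-0.30), and Casp6 footprints passed without KO-labelled replicate 1 (-1.99). Among 7 inhibitors of apoptosis and their antagonists, RNA of 5 rose and of 1 fell, beside the same shares over all genes, and nothing particular to the group is read from so few genes. Birc3, an inhibitor of apoptosis induced by NF-kB, fell to 5.99 and 7.32 RPKM of RNA, against 12.8 and 13 RPKM in WT (limma adjusted p = 0.000304). Birc5, which encodes the mitotic protein survivin, rose to 59.6 and 48 RPKM of RNA, against 35.7 and 38 RPKM in WT (limma adjusted p = 0.00382), while its footprints were 24.7 and 73.9 RPKM against 94.9 and 130 RPKM (limma adjusted p = 0.325) and passed without KO-labelled replicate 2 (-2.12). RNA of Htra2, a mitochondrial protease that antagonises these inhibitors, rose by 0.52 in log2 units, with a limma adjusted p of 0.00469.

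Regulators of individual members passed in RNA at a share near the 60.8% of all genes. Of 4 tested genes of MCL1 turnover, Huwe1, a ubiquitin ligase of MCL1, rose by 0.59 and Gsk3b, a kinase that marks MCL1 for degradation, by 0.29 in log2 units, with limma adjusted p of 0.00278 and 0.0213, and 2 missed the threshold. The Gsk3b call was lost without KO-labelled replicate 2 (0.27) and without WT replicate 2 (0.22). Of 11 tested kinases and phosphoprotein partners of BAD or BIM, 2 rose, 5 fell and 4 missed the threshold. Mapk3, which encodes the kinase ERK1, rose to 45.5 and 47.8 RPKM of RNA, against 21.3 and 20 RPKM in WT (limma adjusted p = 1.34e-05). The survival kinase Pim3 fell to 15.2 and 14.4 RPKM, against 34.2 and 35.6 RPKM in WT (limma adjusted p = 1.07e-05). Its relative Pim1 rose to 6.78 and 11.5 RPKM, against 5.07 and 3.59 RPKM in WT (limma adjusted p = 0.0106), and Pim1 footprints passed without KO-labelled replicate 1 (1.98). Of 3 tested transcription factors of BH3-only genes, Foxo3 rose by 0.47 and Trp53 by 0.24 log2 units in RNA, with limma adjusted p of 0.0164 and 0.0205. Both calls were lost without WT replicate 1 (0.49 and 0.21) and without WT replicate 2 (0.44 and 0.27), and that of Foxo3 also without KO-labelled replicate 2 (0.29), with no filter and with a mean RNA of at least 1 RPKM (0.47 in both). The Trp53 call was also lost with the replicate number as a block. Among the p53 targets Bax, Pmaip1 and Bbc3, Bax RNA was higher, Pmaip1 RNA lower, and Bbc3 RNA overlapped between the groups. These are not all the p53 targets among the genes covered. The 3 voltage-dependent anion channels of the outer membrane, Vdac1, Vdac2 and Vdac3, did not pass in RNA, footprints or TE.

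**Figure D5:**
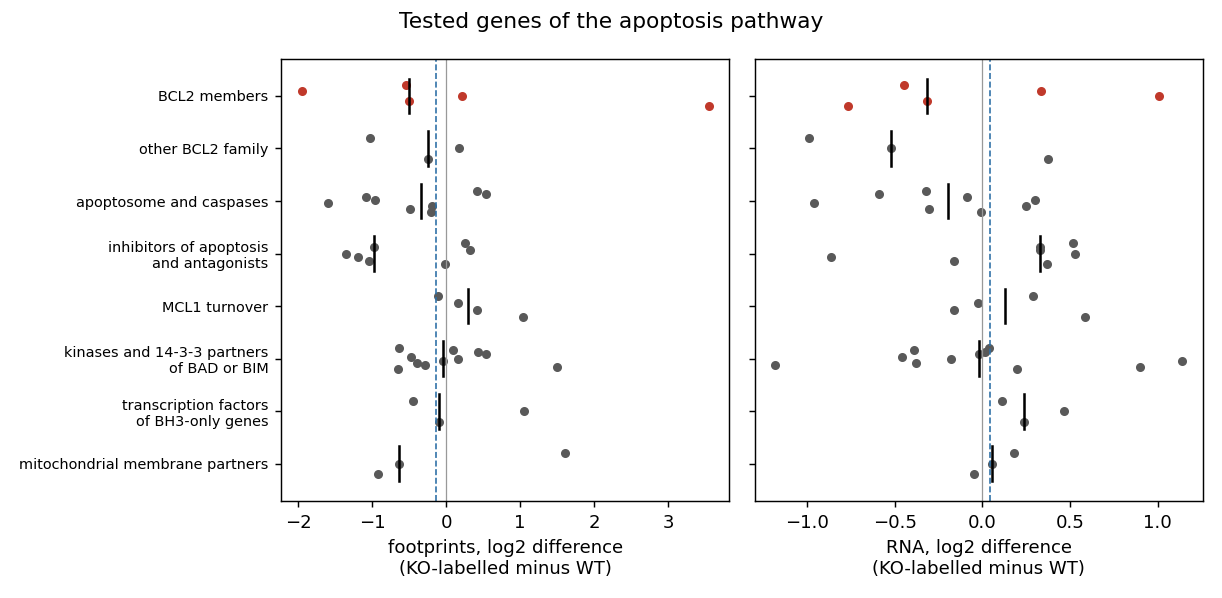
Log2 differences (KO-labelled minus WT) in footprints (left) and RNA (right) of the tested BCL2 members (red) and of the other tested apoptosis genes by group (grey), 1 point per gene with a black bar at each median and a blue dashed line at the median of all genes tested (-0.134 and 0.0431). In footprints Bcl2l1 (3.55) and Bak1 (-1.95) mark the ends of the range of these genes.

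The genes most like Bcl2 and Mcl1 were found by Euclidean distance over 8 values, the centred log2(RPKM + 1) of footprints and RNA in the 4 libraries. For Bcl2, among 6389 genes, they were Asf1a, Erg28 and Yy1, at distances of 1.01, 1.02 and 1.05, where the median gene lay at 2.71. The Bcl2 footprints in these distances came from 9 reads and 1 read in the KO-labelled libraries and 4 and 7 reads in WT. Counting error therefore enters this match. For Mcl1, among 6388 genes, they were Acap2, Fam114a2 and Abhd17b, at 0.299, 0.299 and 0.327, where the median gene lay at 1.17.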

How the data were processed

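Per the labels' protocols, lysates were digested with 10 µg/ml micrococcal nuclease for 30 minutes, and fragments of 25 to 40 nucleotides were purified. DESeq2, featureCounts, HISAT2 2.1.0 and CASAVA are the tools that the submitters' processing notes list, without saying what each did. The same notes list the build hg38, whereas the gene symbols are those of mouse, and no source used here names an annotation. The deposited footprint values behaved as RPKM plus 1, a unit read from the values. The deposited TE is the ratio of footprint value to RNA value, each plus 1. The authors' deposited p-value column was not used here.

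Whole footprint reads were recovered for 10536 genes from the RPKM steps (tolerance 0.002 reads), and input reads for 15935. The implied footprint lengths were multiples of 3 for 70.8% of genes, near coding length, while RNA lengths were those of exons. RNA was the footprint value over TE, minus 1. limma 3.58.1 (R 4.3.3) with a mean-variance trend was fitted to log2(RPKM + 1), or log2 TE, of genes with at least 20 CPM in at least 2 libraries, with group as the only term and Benjamini-Hochberg adjustment over all 6389 genes, threshold 0.05. Fold changes on this scale understate those of low genes. Recovery and fit were tested on simulated data. Intervals are exact Poisson or binomial ones at 95%, and a listed 0 has a floor of 3 reads; both cover counting error only. Sequences are from RefSeq (GRCm38.p6). Named genes were the 10 members, Rreb1, up to 3 genes per pathway group with the largest difference past the threshold in any fit, and the 3 genes most like Bcl2 and Mcl1. Members and lists were chosen with earlier results of these data known. Alternatives covered the pseudocount, filter, scaling, replicate block, each library left out and limma-voom. Python 3.11.15 was used for recovery and figures.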

Additional observations from a re-analysis of the deposited data

How the results depend on the processing

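Depth limits the footprint values: the shallowest footprint library lay 3.2-fold below the deepest, input libraries within 1.12-fold. The footprint count of 68 genes became 110 with a pseudocount of 5, 0 with no filter (1674 at an unadjusted p under 0.05 in limma), 18 with a mean of at least 20 CPM, and 32 with the replicate number as a block. Leaving out 1 library gave 0 to 1097 genes, with 0 without either WT replicate (395 and 420 at an unadjusted p under 0.05), 336 without KO replicate 1 and 1097 without KO replicate 2, on the assumption that the single library left varies as the 2 of the other group do. Among BCL2 members the footprint count of 1 became 0 with no filter, with a mean of at least 20 CPM, with libraries centred on their median and with limma-voom, and 0 to 2 with 1 library left out; the cause was not tested. The log2 difference of Bcl2l1 was 3.55, 3.55, 3.61 and 3.56 there. Centring shifted the median footprint difference from -0.134 to -0.0758 and changed no footprint sign among the 5 members tested.

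Other apoptosis genes called were 0 to 4 in footprints, 15 to 25 in RNA (17 and 15 without WT replicates 1 and 2) and 0 to 5 in TE with 1 library left out. The RNA count of 3882 became 6286 with no filter and 6132 with a mean RNA of at least 1 RPKM, where more genes were tested. TE calls were 0 to 699 with 1 library left out, and 0 to 2 among members. The log2 ratio of role sums ranged, with 1 library left out, from -0.62 to -0.24 for effector footprints, from -0.49 to 0.08 for BH3-only footprints and from 0.68 to 1.55 for survival over effector footprints. Footprint differences of Bcl2, Bad and Bcl2l11, under the filter, changed sign with 1 library left out, as did that of Bax (-0.20 without KO replicate 2). Of the named pathway genes, RNA kept direction and side of the threshold in 159 of 176 alternatives and lost the call in 17, among them Trp53 and Aifm1, and, with no filter, Foxo3, Gsk3b, Bcl2l12, Htra2 and Pim1. Footprints and TE each gained a call in 3 alternatives.

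Same-numbered libraries did not deviate in the same direction (r of the replicate differences 0.0226 in footprints, -0.335 in RNA, 0.00836 in TE). With 2 libraries per group, these values cannot decide whether the numbers pair them. With the replicate block RNA calls were 3480 and TE calls 0, and Trp53 RNA missed the threshold (limma adjusted p = 0.0544). Crossed numbers, added after the data were seen, gave 134, 4395 and 2 calls in footprints, RNA and TE.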

Other observations

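Several BCL2 relatives fell below the footprint filter and are given as values, chosen after they were seen. RNA of Bok, a BAX-like effector, was 2.48 and 3.38 RPKM in the KO-labelled libraries, against 0.739 and 0.748 RPKM in WT, with footprints listed at 0 in all 4. Bnip3, a mitophagy receptor, was listed at 0 footprints in both KO-labelled libraries, against 8.11 and 5.42 RPKM in WT, while its RNA was 29.6 and 31.2 RPKM against 42.5 and 41.8 RPKM. The A1 genes are near-identical copies whose reads can be split or dropped, so their values are uncertain. RNA of Bcl2a1a, the most abundant of them, was 49.7 and 40.4 RPKM in the KO-labelled libraries, against 27.9 and 27.3 RPKM in WT. That of Bcl2a1b was 10.6 and 10.4 RPKM in the KO-labelled libraries, against 4.48 and 4.04 RPKM in WT. Bcl2a1d lay the other way, at 2.89 and 3.74 RPKM, against 9.7 and 10.8 RPKM.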
